A study of Mus musculus with 6 samples.

Results

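The noncoding RNAs described here are 7 genes of the 29393 in a count table of mouse T cells cultured with or without interleukin 10 (IL-10). Gm19705, Gm11346 and 9530020I12Rik were chosen because their counts differed between the cultures, so their values are a description and carry no test. Malat1, Neat1, Gas5 and Snhg1 were added as abundant references. In the GENCODE annotation 6 of the 7 belong to the long noncoding class, of which 6257 genes are in the table and 1512 had enough counts to be tested. Gm11346 is annotated as a transcribed processed pseudogene, a gene copy made from a spliced RNA. All 7 had at least 10 counts in at least 3 libraries, but 9530020I12Rik only through the cells without IL-10 and Gm11346 only through the cells with it, where 3 libraries reached that count against 2 without it.

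The cells were double-negative T cells (cDNT), which lack surface CD4 and CD8, from adult C57BL/6 mice. The sample labels give spleen as the tissue. The methods of the study describe cDNT as made in culture, with mature dendritic cells and IL-2, from CD4+CD25- T cells of the spleen and lymph nodes of C57BL/6 mice carrying the CD45.1 allele, a congenic marker that the labels do not mention. In the W/ IL-10 group IL-10 was present at 50 ng/ml over 24 h, the W/O IL-10 group received none, and each group had 3 libraries of total RNA from sorted cells. The methods also name anti-CD3/CD28 antibodies, which the labels do not mention, and no source used here says whether the control cells received them. No genetic difference between the groups is named. The labels do not say whether replicates came from separate mice or cultures, so p-values measure only the spread between these libraries.

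Long noncoding RNAs are transcripts without a recognised long reading frame. Malat1 is kept in the nucleus near splicing speckles, and Neat1 is the scaffold of the nuclear bodies called paraspeckles. Gas5 and Snhg1 are host genes, whose introns are cut into small nucleolar RNAs (snoRNAs) that guide chemical modification of ribosomal RNA. The spliced Gas5 RNA is known for building up when T cells stop growing, because it is a 5' terminal oligopyrimidine transcript whose decay depends on translation. For Gm19705, Gm11346 and 9530020I12Rik no function is stated here.

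On GRCm38, Gm19705 (ENSMUSG00000097113) lies on the forward strand at chr1:136670769-136690804 and is an intergenic RNA with 11 exon blocks and 1558 exon bases. Gm11346 (ENSMUSG00000085603) lies on the reverse strand at chr13:24596347-24604925, with 4098 exon bases, inside an intron of Ripor2, which is read from the other strand. The intergenic RNA 9530020I12Rik (ENSMUSG00000112041) lies on the reverse strand at chr12:11185993-11204502, with 2284 exon bases in 6 blocks. Malat1 (ENSMUSG00000092341, chr19:5795690-5802672) and Neat1 (ENSMUSG00000092274, chr19:5824708-5845478) are reverse-strand neighbours, each annotated as 1 unbroken exon block, of 6983 and 20771 bases. Gas5 (ENSMUSG00000053332, chr1:161034422-161038539) and Snhg1 (ENSMUSG00000108414, chr19:8723475-8726443) lie on forward strands with 3760 and 2969 exon bases.

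The start regions of the RNAs are shown because a factor responding to IL-10 could bind there, and because a terminal oligopyrimidine start would lie there. Bases elsewhere, among them the GENCODE start of Gm19705, were not examined. RefSeq (GRCm38.p6) gave 7 windows of 300 bases for 5 of the 7 RNAs, running from 250 bases before an annotated start to 50 after it. Gm19705 and Gas5 had 2 windows each, and Gm11346 and Neat1 had none. For Gm19705 (its first window) and 9530020I12Rik the whole window is given, 5' to 3' on the strand of the gene. Capitals mark the first 5 transcribed bases. The Gm19705 window is chr1:136683146-136683445, inside the GENCODE gene span, and that of 9530020I12Rik is chr12:11204453-11204752 (reverse strand).
Gm19705: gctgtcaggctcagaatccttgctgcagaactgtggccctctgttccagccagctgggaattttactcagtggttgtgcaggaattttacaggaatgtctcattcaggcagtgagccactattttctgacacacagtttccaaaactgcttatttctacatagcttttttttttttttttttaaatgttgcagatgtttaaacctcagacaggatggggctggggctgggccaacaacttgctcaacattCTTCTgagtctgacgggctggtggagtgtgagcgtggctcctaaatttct
9530020I12Rik: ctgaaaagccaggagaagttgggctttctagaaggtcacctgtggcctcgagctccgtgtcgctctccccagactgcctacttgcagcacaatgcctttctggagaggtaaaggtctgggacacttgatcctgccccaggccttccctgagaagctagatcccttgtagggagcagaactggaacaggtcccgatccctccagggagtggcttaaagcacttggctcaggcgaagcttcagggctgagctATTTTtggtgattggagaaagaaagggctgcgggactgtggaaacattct

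For the references, 100 bases around the start are given, at chr1:161035116-161035215 for Gas5 (forward strand), chr19:8723437-8723536 for Snhg1 (forward strand) and chr19:5802623-5802722 for Malat1 (reverse strand). Capitals again mark the first 5 transcribed bases.
Gas5: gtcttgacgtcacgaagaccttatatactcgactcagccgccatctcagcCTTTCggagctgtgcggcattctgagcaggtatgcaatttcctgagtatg
Snhg1: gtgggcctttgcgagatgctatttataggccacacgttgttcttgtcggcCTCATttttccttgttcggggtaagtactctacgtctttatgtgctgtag
Malat1: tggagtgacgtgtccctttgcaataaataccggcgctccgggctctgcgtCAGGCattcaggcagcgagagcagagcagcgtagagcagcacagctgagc

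The letters TTCNNNGAA, which STAT factors downstream of the IL-10 receptor can bind and which read the same on both strands, occurred in 0 of the 7 windows and in 8.3% of all 32851 RefSeq windows. The window of Socs3, a known STAT3 target, held them at position -154 from its start. A start with C followed by 4 pyrimidines was present in 2 of the 7 windows, the printed ones of Gm19705 and Gas5, and in 2.51% of all windows. The window not printed of each had a start without it, GTGTG for Gm19705 and GAGCT for Gas5. The printed Gas5 window also held TGACGTCA, the cAMP response element, 46 bases before the start. That motif was looked for after the sequence had been seen, and 1.79% of all windows hold it. A match is a run of letters and not a measured binding site.

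The libraries were of similar depth, with 21619420 to 23967088 counts on genes, and 3 counts corresponded to 0.125 to 0.139 CPM, the read count normalised to library size. Long noncoding genes took 0.907% to 1.2% of the counts, and Malat1 and Neat1 together took 8.73% to 15.3% of that share. W/O IL-10 replicate 1 stood apart, with the lowest median of the 83 tested genes of up to 36% GC, -0.97 on the log2 scale from the mean of the 6 libraries against 0.09 to 0.45 in the others. It also had the highest share of ribosomal protein genes (8.55% against 5.92% to 6.87%) and the lowest share of mitochondrial genes (1.34% against 2.2% to 2.79%). The cause was not tested. All 10 T cell marker genes were detected, with a summed level of 3289 to 3789 CPM W/O IL-10 and 4224 to 4357 CPM W/ IL-10. Cd8a transcripts were present at 107 ± 11.7 CPM W/O IL-10 and 158 ± 16.6 CPM W/ IL-10 (SD, n = 3), although the cells are labelled double negative. The log2 fold change of Cd8a was 0.56 (edgeR adjusted p = 0.0369), a fold of 1.477 and so just under the 1.5-fold limit for a call. Cd4 was at 1.39 ± 0.233 and 0.888 ± 0.468 CPM. The 5 B cell markers summed to 62.2 to 153 CPM W/O IL-10 and 59.3 to 105.5 CPM W/ IL-10. Their median log2 fold change was -0.50, with 0 of 5 called by edgeR, 0 at an unadjusted p under 0.05 and 0 called by DESeq2. Without W/O IL-10 replicate 1 the median was -0.78, with Ms4a1 called. Among all tested genes edgeR called 1.45%, and 14.7% had an unadjusted p under 0.05. The 7 macrophage markers summed to 5.04 to 11.5 and 4.97 to 5.29 CPM. Of 6 dendritic cell markers, which summed to 29.4 to 33.0 and 50.0 to 60.9 CPM, Clec9a and Siglech had at most 1 count in a library. The 6 erythroid markers summed to 1.12 to 5.51 and 0.665 to 1.65 CPM. No marker was at 0 in every library. Of these markers edgeR called Cd8b1 and Itgax (CD11c), and Itgax rose from 20.3 ± 2.06 to 43.2 ± 5.35 CPM (log2 fold change 1.09, edgeR adjusted p = 0.00383). Xcr1, another dendritic cell marker, was at 3.88 ± 0.359 and 5.88 ± 1.06 CPM (log2 fold change 0.60, edgeR adjusted p = 0.184). Zbtb46, a transcription factor of the dendritic lineage, was at 6.69 ± 0.466 and 4.93 ± 0.347 CPM (log2 fold change -0.44, edgeR adjusted p = 0.212). These were the 3 dendritic cell markers tested, and all 3 had an unadjusted p under 0.05 in edgeR. Of the 10 T cell markers edgeR called 0 (1.45% of all tested genes), with 5 at an unadjusted p under 0.05 (14.7% of all tested genes) and 0 called by DESeq2. All 10 were higher W/ IL-10, and in 6 the groups did not overlap (22.6% of all tested genes). The part of other cells in the results was not tested, and in bulk RNA fewer cells of a type and less RNA per cell cannot be told apart.

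**Figure D1:**
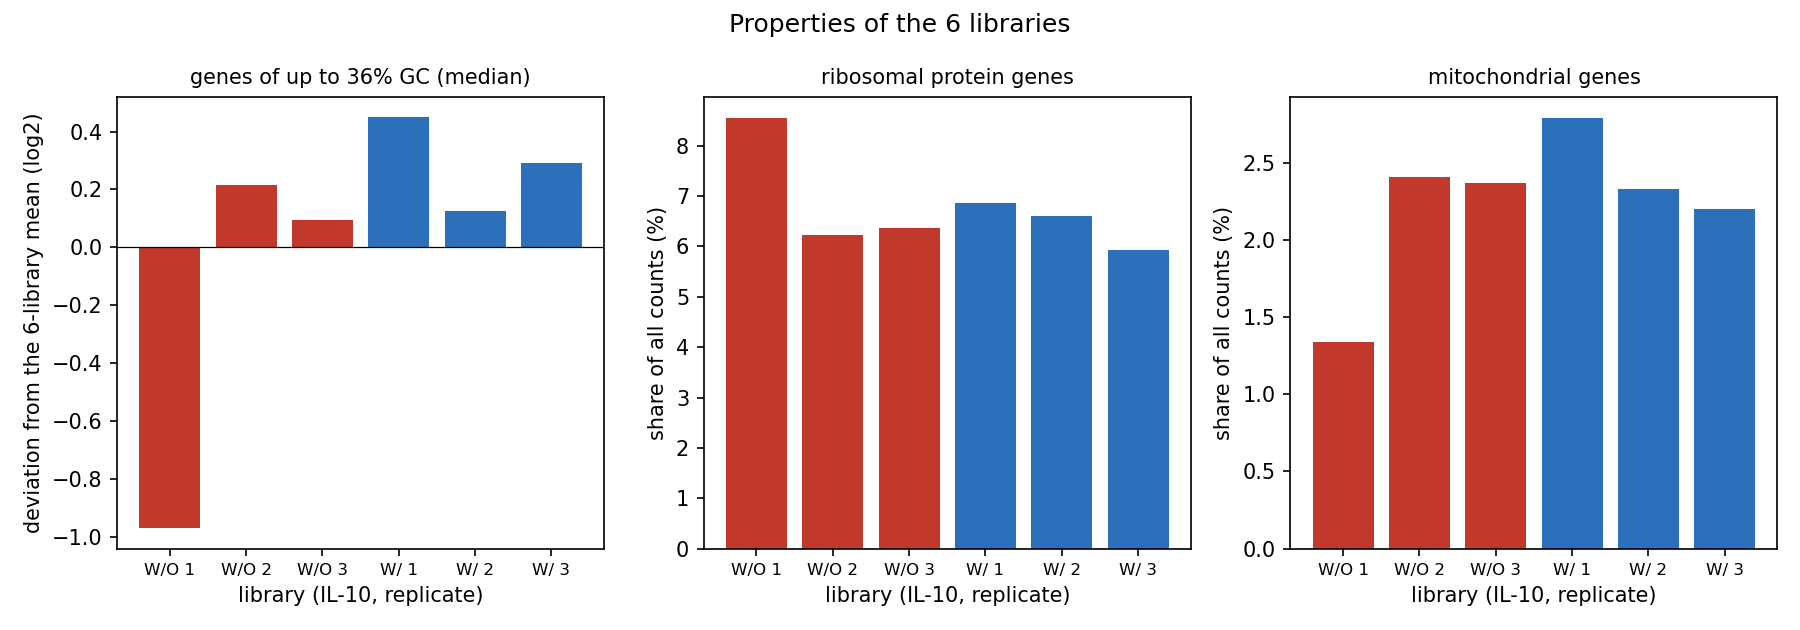
Bars show, for each library (W/O, red; W/, blue; replicates 1 to 3), the median log2 deviation of the tested genes of up to 36% GC from the 6-library mean, and the percent of all counts on ribosomal protein genes and on mitochondrial genes. W/O IL-10 replicate 1 has the lowest bar for low GC (-0.97), the highest for ribosomal protein genes (8.55%) and the lowest for mitochondrial genes (1.34%).

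Gm19705 was the most abundant of the 3 RNAs chosen for their change. It had 103, 111 and 111 counts W/O IL-10 and 383, 320 and 364 counts W/ IL-10 in replicates 1 to 3. Every library with IL-10 lay above every library without it. The means were 4.52 ± 0.293 and 16.2 ± 2.21 CPM (SD, n = 3). The log2 fold change fitted by edgeR was 1.84 (SE 0.15, 95% interval 1.51 to 2.17), a fold of 3.59. The summed counts were 325 and 1067. Scaled to library size, their ratio W/ to W/O IL-10 was 3.58, with an exact 95% interval of 3.16 to 4.06 for counting error only. No 50-base stretch of its transcripts occurs in the annotated transcripts of another gene. Only transcripts in their own orientation were searched, here and for the RNAs below.

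Gm11346 was less abundant and moved in the same direction. Counts were 9, 16 and 16 W/O IL-10 and 37, 48 and 61 W/ IL-10. The lowest library with IL-10 had more counts than the highest without it, so the groups did not overlap. The means were 0.572 ± 0.178 and 2.20 ± 0.441 CPM (SD, n = 3), and the log2 fold change was 1.95 (SE 0.34, 95% interval 1.17 to 2.72). The ratio of the summed counts, 41 and 146, was 3.88 after scaling to library size (exact 95% interval 2.73 to 5.63). Its interval was wider than that of Gm19705, which had more counts. In the sequence of Gm11346, 1.4% of 50-base stretches also occur in transcripts of other genes.

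The RNA 9530020I12Rik had at most 3 counts in a library with IL-10. Counts were 18, 19 and 16 W/O IL-10 and 0, 3 and 0 W/ IL-10. The groups did not overlap, and the 3 reads with IL-10 all came from replicate 2. The level W/O IL-10 was 0.736 ± 0.0483 CPM (SD, n = 3), and in the libraries with IL-10 it was 0, 0.133 and 0 CPM. The summed counts were 53 and 3. Scaled to library size, the sum was 16.2-fold lower W/ IL-10, with an exact 95% interval of 5.25 to 81.1 for counting error only. Without W/ IL-10 replicate 2 no read was left with IL-10. The fitted log2 fold change, -4.02, depends on how counts of 0 are handled. The depth allows no statement of how little 9530020I12Rik was left.

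**Figure D2:**
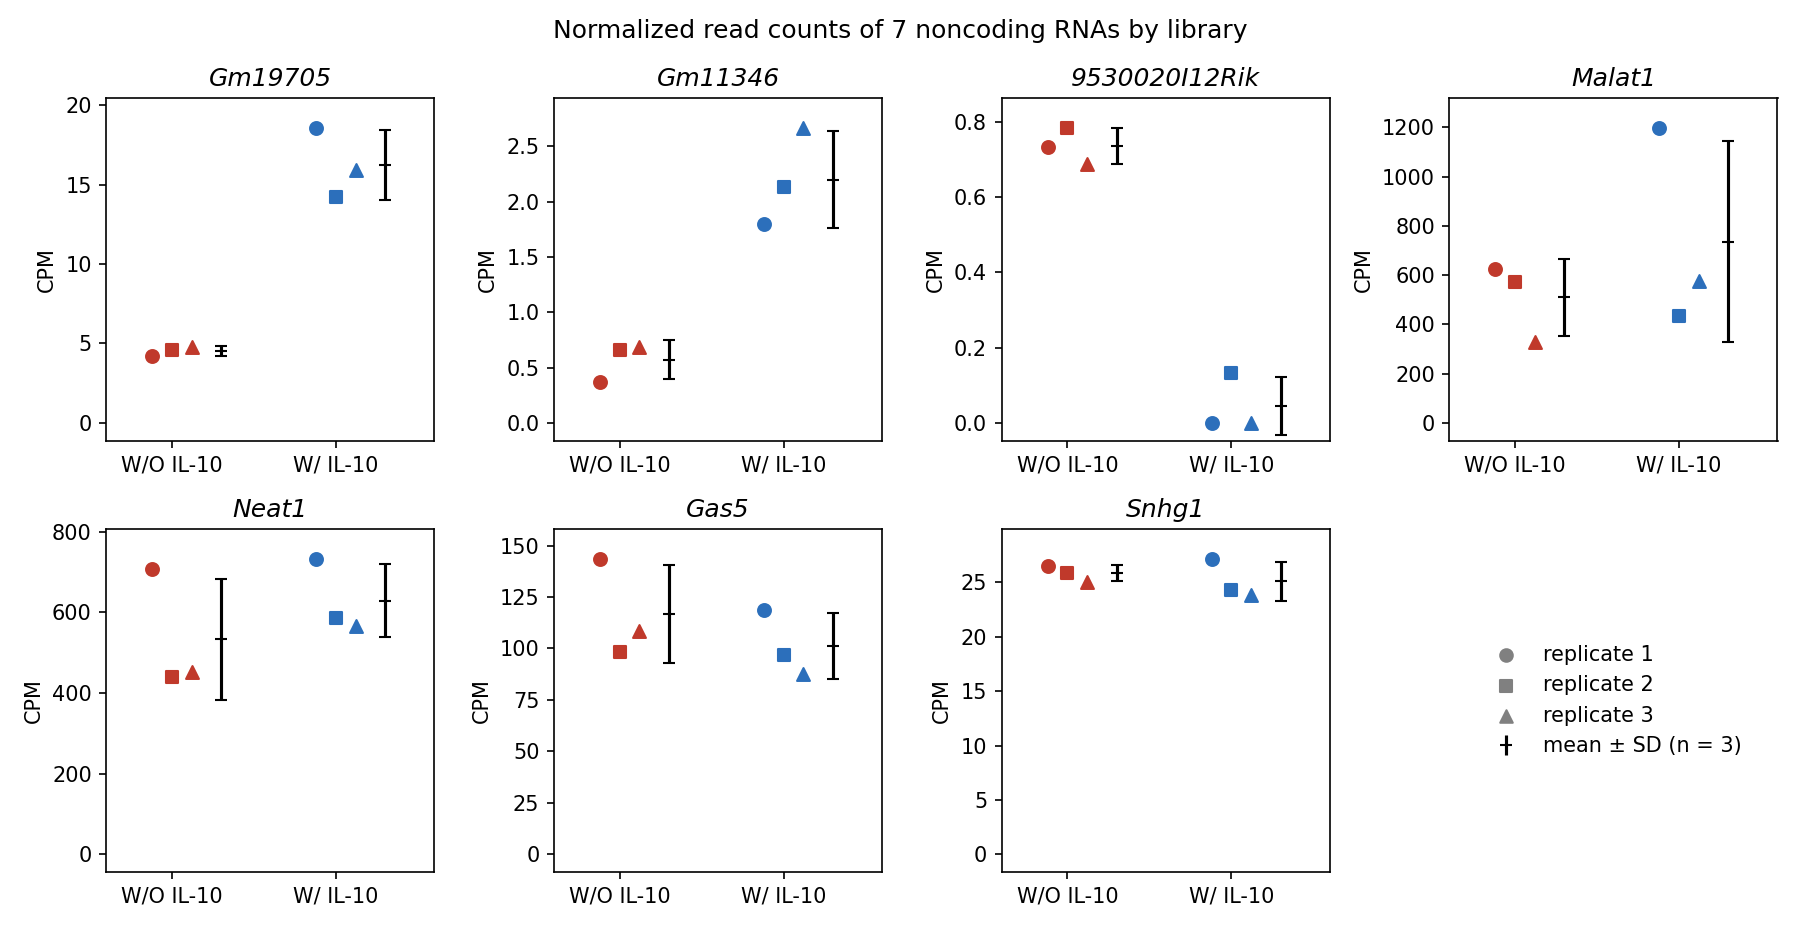
Points show normalised read counts (CPM, linear axis) of the 7 RNAs in each library, W/O IL-10 in red and W/ IL-10 in blue, with replicate 1 as a circle, 2 as a square and 3 as a triangle, and black bars show the mean ± SD of the 3 libraries of a group. The groups are apart for Gm19705, Gm11346 and 9530020I12Rik and overlap for Malat1, Neat1, Gas5 and Snhg1.

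Together these 3 RNAs passed the rule for a call, an adjusted p-value under 0.05 and a fold change of at least 1.5, which 1.45% of the 14916 tested genes passed (0.778% higher and 0.677% lower W/ IL-10), and groups that do not overlap were found in 22.6% of tested genes. Nothing is read from these counts, since the RNAs were chosen from the same contrast. The references were not chosen for a change, and 0 of 4 passed the rule by edgeR. All 4 had groups that overlapped. None had an unadjusted p-value under 0.05 in the edgeR fit, and DESeq2 called none.

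Malat1 was the most variable of the references. Its counts were 15335, 13865 and 7648 W/O IL-10 and 24699, 9749 and 13136 W/ IL-10. The highest library and the second lowest both belonged to the W/ IL-10 group. The means were 509 ± 158 and 735 ± 408 CPM (SD, n = 3), and the coefficient of variation was 31.1% without and 55.4% with IL-10. The log2 fold change in the quasi-likelihood test of edgeR was 0.53 (SE 0.36, 95% interval -0.29 to 1.35, Benjamini-Hochberg adjusted p = 0.55). Without W/ IL-10 replicate 1 it was -0.016 (adjusted p = 0.989 by the same edgeR test), so 1 library set the direction. The interval includes both no change and a rise beyond the 1.5-fold limit. Gm37376, on the other strand, covers 6.5% of the Malat1 exon bases, and without a stated strand setting their reads cannot be told apart there.

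Neat1 had 17315, 10616 and 10514 counts W/O IL-10 and 15091, 13199 and 12947 counts W/ IL-10. W/O IL-10 replicate 1 lay among the libraries with IL-10, and the other 2 without IL-10 lay below all 3 with it. The means were 533 ± 151 and 628 ± 90.8 CPM (SD, n = 3). The log2 fold change was 0.24 (SE 0.19, 95% interval -0.18 to 0.66, edgeR adjusted p = 0.604). Without W/O IL-10 replicate 1, the library that also stood apart in GC content, the log2 fold change was 0.49 with an adjusted p of 0.0283 in edgeR, still under the 1.5-fold limit. Whether Neat1 passed the adjusted threshold thus depended on that library.

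Neat1 and Malat1 did not keep a fixed ratio, although they are neighbours. Per exon base, Neat1 counts were 0.38, 0.257 and 0.462 of those of Malat1 in W/O IL-10 replicates 1 to 3 and 0.205, 0.455 and 0.331 in W/ IL-10 replicates 1 to 3. The ratio varied within each group over about the same range.

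Gas5 had 3519, 2377 and 2517 counts W/O IL-10 and 2451, 2179 and 2006 counts W/ IL-10. Its highest library was W/O IL-10 replicate 1, and the remaining 5 lay at 87.8 to 119 CPM. The means were 117 ± 23.8 and 101 ± 16.1 CPM (SD, n = 3), with a log2 fold change of -0.21 (SE 0.16, 95% interval -0.56 to 0.14, edgeR adjusted p = 0.586). Without W/O IL-10 replicate 1 it was -0.04 (edgeR adjusted p = 0.916). In Gas5, 5.2% of 50-base stretches occur in annotated transcripts of other genes.

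Snhg1 was the steadiest of the 7 RNAs. Counts were 651, 627 and 583 W/O IL-10 and 560, 548 and 546 W/ IL-10, and after scaling the highest of the 6 libraries was 1.14 times the lowest, compared with 3.64 times for Malat1. The means of Snhg1 were 25.9 ± 0.736 and 25.1 ± 1.79 CPM (SD, n = 3). The log2 fold change was -0.04 (SE 0.09, 95% interval -0.25 to 0.17, edgeR adjusted p = 0.875), so a change of 1.5-fold in either direction lay outside the interval. The count of Gas5 was 3.67 to 5.41 times that of Snhg1 in a library, highest in W/O IL-10 replicate 1. In Snhg1, 7.1% of 50-base stretches occur in annotated transcripts of other genes.

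**Figure D3:**
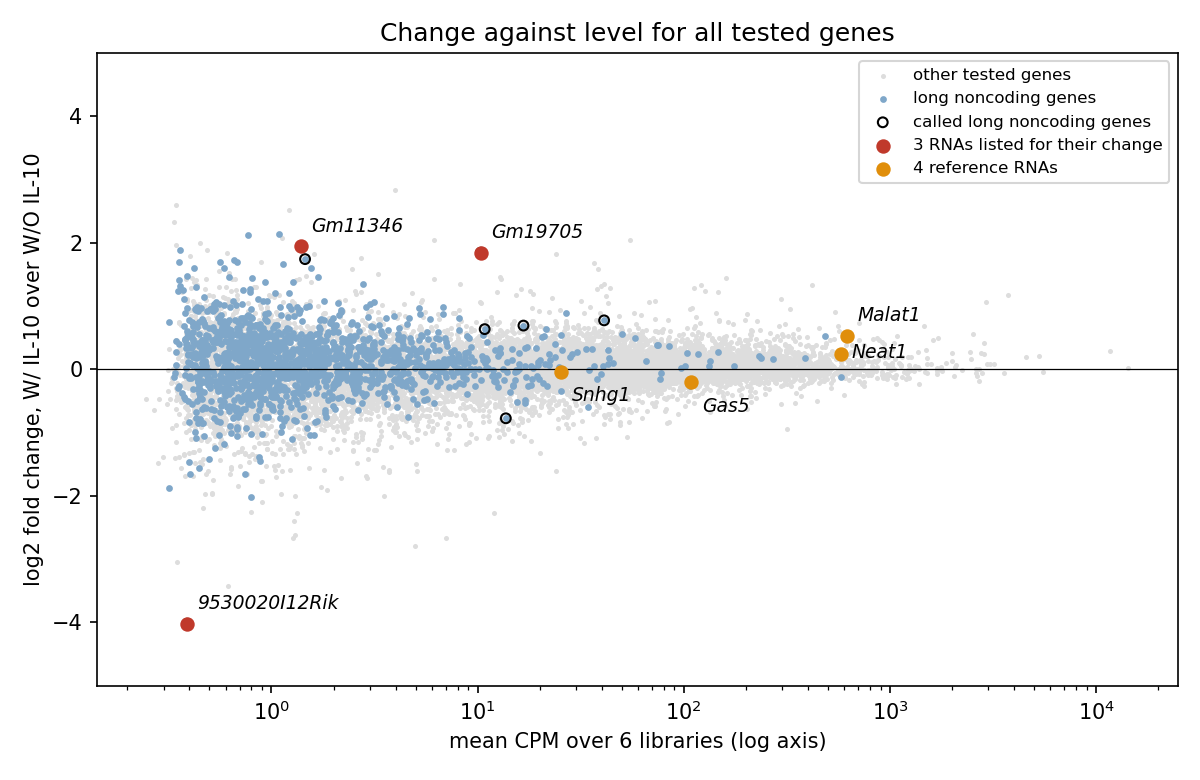
Each point is a tested gene, with its mean CPM over the 6 libraries on a log x axis and its log2 fold change, W/ over W/O IL-10, on the y axis. Long noncoding genes are blue, with those called ringed in black, the 3 RNAs chosen for their change are red and the 4 references orange. Gm19705 and Gm11346 lie near 2, 9530020I12Rik near -4 at the low end of the level axis, and the references between -0.21 and 0.53 at higher levels.

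Levels can be compared between genes only per length, here as CPM per kilobase of exon. Exon bases were the union over all annotated transcripts, which gave 1 block for Snhg1 (18 transcripts) and 3 for Gas5 (25 transcripts). Stretches that are introns in the spliced RNA can thus count as exon, and the levels of these host genes may be too low. The order and the ranks below depend on these lengths. Over the 6 libraries Malat1 had the highest level of the 7, 89.1, followed by Gas5 (29.0), Neat1 (27.9), Snhg1 (8.59), Gm19705 (6.66), Gm11346 (0.338) and 9530020I12Rik (0.171). Without IL-10 the range of Gas5 (26.1 to 38.2) overlapped that of Neat1 (21.1 to 34.0). Within each library W/O IL-10, Gas5 was above Neat1 (38.2, 26.1 and 28.8 against 34.0, 21.1 and 21.8). Within each library W/ IL-10 it was below Neat1 (31.6, 25.7 and 23.3 against 35.3, 28.2 and 27.3). This turn was not tested, and edgeR called neither RNA. Gm19705 was at 2.70 to 3.07 W/O IL-10, below every Snhg1 value (8.45 to 8.94), and at 9.11 to 11.9 W/ IL-10, where Snhg1 was at 8.05 to 9.15. For 9530020I12Rik and Gm11346 the order also turned, with 9530020I12Rik higher W/O IL-10 (0.301 to 0.344 against 0.0896 to 0.168) and Gm11346 higher W/ IL-10 (0.438 to 0.651 against 0 to 0.0583). Among the 1512 tested long noncoding genes Malat1 ranked 5 per kilobase, Gas5 14, Neat1 15, Snhg1 74, Gm19705 101 and 9530020I12Rik 1409.

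Long noncoding genes as a class were less abundant and less precisely measured than coding genes. Their median level was 1.27 CPM, against 30.3 CPM for protein-coding genes, and the median SE of a log2 fold change was 0.37 against 0.12. Of the 1512 tested, 7 (0.463%) were called by edgeR, 5 higher (0.331%) and 2 lower (0.132%) W/ IL-10, and 14.4% had groups that did not overlap. Of protein-coding genes 1.68% were called. The 7 include Gm19705 and 9530020I12Rik. The number rested on single libraries. It was 2 without W/O IL-10 replicate 2, 4 without W/O IL-10 replicate 3, 3 without W/ IL-10 replicate 2, and 1 when replicate 1 or replicate 3 of the W/ IL-10 group was left out. Without W/O IL-10 replicate 1 it was 10.

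The other 5 called genes had smaller fold changes than Gm19705. Gm13293 had 18, 9 and 21 counts W/O IL-10 and 54, 48 and 45 W/ IL-10, and rose by a log2 fold change of 1.74 (SE 0.36, edgeR adjusted p = 0.046). Gm19585 had 625, 717 and 832 counts against 1142, 1103 and 1168, and rose by 0.77 (SE 0.12, edgeR adjusted p = 0.0213). Trerf1 rose by 0.69 (SE 0.12, edgeR adjusted p = 0.0247) and B930095G15Rik by 0.64 (SE 0.13, edgeR adjusted p = 0.0467). Trerf1 is in the class only by its GENCODE type, processed transcript, and whether its reads come from a coding RNA was not tested. The decrease was that of 4930520O04Rik, with 497, 391 and 358 counts against 234, 219 and 212, which fell by 0.77 on the log2 scale (SE 0.14, edgeR adjusted p = 0.034). In all 5 the groups did not overlap (14.4% of tested long noncoding genes, 22.6% of all tested genes). Nothing is read from this, since the 5 were named for their call in the same contrast.

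Noncoding RNAs with known roles were collected in 3 lists to set the references among their kind. Of 13 tested snoRNA host genes edgeR called 0, with 3 at an unadjusted p under 0.05 and 0 called by DESeq2. Over all tested genes 1.45% were called and 14.7% had an unadjusted p under 0.05. Their median log2 fold change was -0.15, against 0.0063 for all tested genes, with 5 higher and 8 lower W/ IL-10. In W/O IL-10 replicate 1, 9 of the 13 had their highest level of the 6 libraries, as did 24.3% of all tested genes, and without that library the median was -0.02. Epb41l4aos, a host gene without an Snhg name, had 561, 405 and 485 counts W/O IL-10 and 279, 348 and 290 W/ IL-10 (log2 fold change -0.54, edgeR adjusted p = 0.104). Snhg5 had 675, 635 and 656 against 671, 781 and 739 counts (log2 fold change 0.28, edgeR adjusted p = 0.15). Neither passed the threshold, and they differed in sign.

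Of 12 tested nuclear and housekeeping noncoding RNAs edgeR and DESeq2 called 0, with 3 at an unadjusted p under 0.05, a median log2 fold change of 0.25, and 9 higher and 3 lower. The imprinted RNA Peg13 had 522, 416 and 376 counts W/O IL-10 and 272, 286 and 284 W/ IL-10 (log2 fold change -0.51, edgeR adjusted p = 0.0891). Firre, a nuclear RNA of the X chromosome, was at 94.2 ± 5.53 and 113 ± 11.7 CPM (SD, n = 3), with a log2 fold change of 0.26 (edgeR adjusted p = 0.228). Of 12 microRNA host and immune noncoding RNAs edgeR and DESeq2 called 0, with 2 at an unadjusted p under 0.05, a median of 0.11, and 8 higher and 4 lower. Mir155hg, which carries miR-155, a microRNA of activated lymphocytes, had 178, 345 and 318 counts W/O IL-10 and 337, 280 and 305 W/ IL-10 (log2 fold change 0.26, edgeR adjusted p = 0.665). Its lowest value was in W/O IL-10 replicate 1. Of 11 coding genes of the IL-10 response, in the same fit, edgeR called 4 higher and 1 lower (0.778% and 0.677% of all tested genes), among them Socs3, the feedback inhibitor of the receptor (log2 fold change 1.82), and Bcl3 (1.69).

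**Figure D4:**
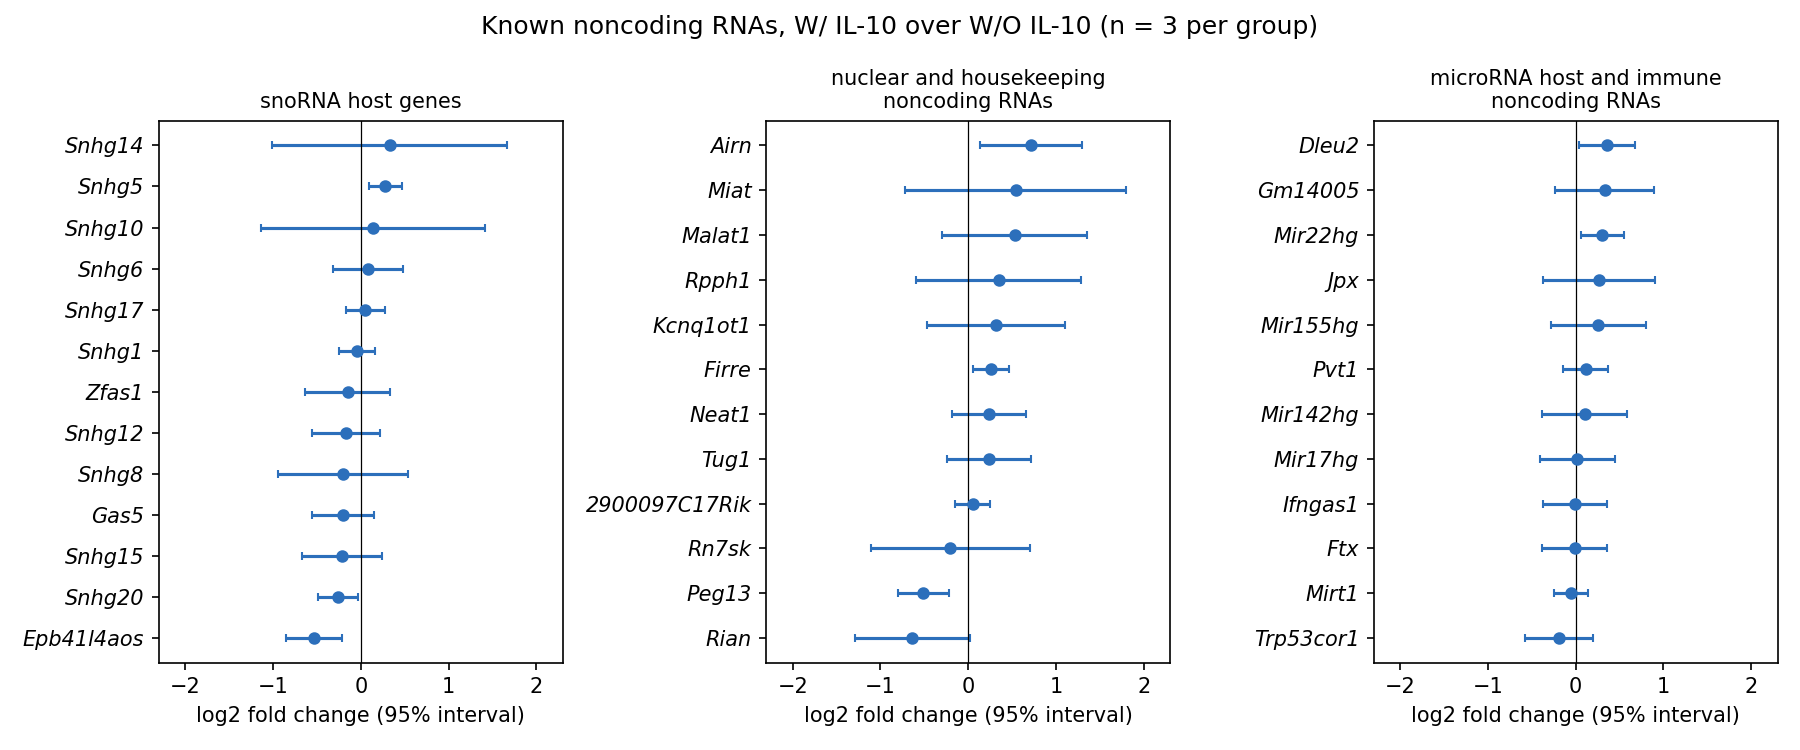
Points show the log2 fold change, W/ over W/O IL-10 (x axis), of each tested gene of the 3 lists, and bars the 95% interval from the edgeR fit (3 libraries per group). The intervals of Epb41l4aos, Snhg20 and Peg13 lie below 0, those of Snhg5, Airn, Firre, Dleu2 and Mir22hg above 0, all others span 0, and no gene of the lists passed the adjusted threshold.

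The genes beside the 7 RNAs were examined next. Of 10 tested coding neighbours edgeR called 0 (1.45% of all tested genes), with 3 at an unadjusted p under 0.05 (14.7% of all tested genes) and 0 called by DESeq2. The 3 were Zfp281, Ripor2 and Cmah, which lie beside Gm19705 or Gm11346, and all were higher W/ IL-10. Cmah, 118970 bases from Gm11346, had a log2 fold change of 0.42 (edgeR adjusted p = 0.264). Zfp281, a zinc finger transcription factor whose gene ends 40716 bases from Gm19705, had 837, 1185 and 1155 counts W/O IL-10 and 1396, 1290 and 1574 W/ IL-10. The groups did not overlap, and the log2 fold change was 0.55 (SE 0.15, edgeR adjusted p = 0.11). Its lowest value was in W/O IL-10 replicate 1 (34.1 CPM against 49.0 and 49.7 in the other W/O IL-10 libraries), and without that library the log2 fold change was 0.38 (edgeR adjusted p = 0.0486), under the 1.5-fold limit. Ripor2, around Gm11346, had 2062, 2060 and 2284 against 2170, 2210 and 2849 counts (log2 fold change 0.29, 95% interval 0.06 to 0.53, edgeR adjusted p = 0.231).

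Msgn1, 3858 bases from 9530020I12Rik and known as a regulator of embryonic mesoderm, had 19, 10 and 16 counts W/O IL-10 and 7, 7 and 9 W/ IL-10. The groups did not overlap, but the log2 fold change of -0.84 (SE 0.43) had an edgeR adjusted p of 0.417. Of the neighbours of the references, Slc3a2, an amino acid transporter subunit that starts 106 bases from Snhg1 on the other strand, had 8696, 8830 and 7892 counts W/O IL-10 and 6688, 8669 and 7459 W/ IL-10 (log2 fold change -0.03, edgeR adjusted p = 0.903). Frmd8, near Neat1, had a log2 fold change of 0.04 (edgeR adjusted p = 0.861).

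The genes whose pattern over the 6 libraries was most like that of each RNA were found by Pearson's r of log2 CPM. The points share library depth and base composition, and 6 points allow high values for many genes, so r is only a description. For Gm19705 they were Serpine2 (0.999), Hsd11b1 (0.997) and Pltp (0.997), with 164 genes above 0.95. For Gm11346 they were Pbx3 (0.999), Cyb5r4 (0.998) and Nfkbiz (0.996), with 202 genes above 0.95. For 9530020I12Rik they were Prkcd (0.998), Cd72 (0.996) and Dennd3 (0.994), with 141 genes above 0.95. Fewer genes passed 0.95 for Malat1 (34) and Snhg1 (29) than for Neat1 (62) and Gas5 (71). The closest to Malat1 was Gm45110 (0.988), to Neat1 Tmsb4x (0.992), to Gas5 Lsm7 (0.995) and to Snhg1 Pdzd7 (0.986).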

How the data were processed

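RNA of cDNT was sequenced in 3 libraries per group. The authors deposited whole-number read counts per Ensembl gene, not normalized. The submitters' processing notes name HISAT2, HTSeq and GRCm38, whereas the methods of the study name TopHat, Cufflinks and UCSC annotation. The kits also differ (TruSeq in the labels, NEBNext in the methods), and the design text speaks of duplicates. Versions and the strand setting are not given in the sources used here, and reads on overlapping genes or shared stretches of 50 bases may be lost or split.

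TMM factors (0.953 to 1.03) and the quasi-likelihood test were computed from these counts with edgeR 4.0.16 in R 4.3.3. Tested were 14916 genes that reached 10 counts in 3 or more libraries, without a block, with Benjamini-Hochberg adjustment over all of them. Calls needed an adjusted p-value under 0.05 and a fold change of at least 1.5. CPM use TMM-scaled library sizes. The SE is the log2 fold change divided by the root of F, and intervals are 95%. Symbols and exons come from GENCODE M21 (29332 of 29393 identifiers found), and start regions from RefSeq. No pair of libraries held identical values. Alternatives were DESeq2 1.42.0, upper-quartile factors, no filter, limma-voom (limma 3.58.1), a minimum of 10 counts in every library, the replicate number as a block, a GC and length correction with and without the block (splines with 5 degrees of freedom), and each library left out. The steps were tested on simulated counts.

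The RNAs and lists were chosen with earlier results of these data known. Named genes are the 7 RNAs, their nearest coding neighbours and overlapping genes, list and marker genes, the 3 genes with the highest r (log2 CPM, prior count 2), the 5 largest rises and falls among called long noncoding genes whose groups do not overlap, and the 5 long noncoding genes with the highest CPM per kilobase. Overlapping or neighbouring genes without a row were not analysed here, and single values of some neighbours are not reported here. Plots were made with Python 3.11.15 (matplotlib 3.10.9).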

Additional observations from a re-analysis of the deposited data

How the results depend on the processing

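Gm19705 kept its direction under all 14 alternatives (log2 fold change 1.74 to 1.93) and Gm11346 under the 13 that gave a value (1.70 to 2.09). For 9530020I12Rik 9 gave a value, -4.12 to -3.41, with -3.48 and -3.41 without W/ IL-10 replicates 1 and 3. The 3 RNAs were chosen for their change in these same libraries, so a kept direction is a description and no support. At least 10 counts in every library left out both 9530020I12Rik and Gm11346, and without any of the W/O IL-10 libraries 9530020I12Rik did not pass the filter. Without W/ IL-10 replicate 2 it had no read with IL-10 and no fold change was fitted. Malat1 ranged from -0.016 to 0.80 with a library left out, turning sign without W/ IL-10 replicate 1, and with no filter on low counts its log2 fold change of 0.52 had an adjusted p of 0.000127 in edgeR. Neat1 ranged from 0.11 to 0.49, past the threshold only without W/O IL-10 replicate 1. Gas5 (-0.38 to -0.04) and Snhg1 (-0.26 to -0.0066) stayed negative and past no threshold under all 14. The lowest value of each came with the GC and length correction, and for Snhg1 it lay just beyond the main interval (-0.25 to 0.17). Over tested genes the median log2 fold change fell with GC, from 0.472 at up to 36% GC to -0.126 above 60%. No gene of the 3 noncoding lists and no neighbour was called under any of the 14.

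Over all tested genes 217 were called. The number was 359 by DESeq2 (214 shared), 639 with no filter, 353 with the GC and length correction plus the replicate block, and 35 to 254 with a library left out, lowest without W/ IL-10 replicate 3 (35), W/ IL-10 replicate 1 (57), W/O IL-10 replicate 2 (75) and W/ IL-10 replicate 2 (98). Of long noncoding genes 7 were called, against 15 by DESeq2, 60 with no filter, 4 with at least 10 counts in every library, 14 with the GC and length correction, 15 with that and the block, and 1 to 10 with a library left out. With upper-quartile factors 6 of 8 called long noncoding genes were higher W/ IL-10, against 5 of 7 with TMM. The cause of these differences was not tested.

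The labels number the replicates alike in both groups, but nothing says that the numbers pair samples. The deviations of same-numbered libraries from their group means had an r across genes of 0.0524, -0.0573 and 0.114. With 3 libraries per group these values cannot tell whether the numbers pair samples. With the replicate block 196 genes were called (167 shared), and 4 long noncoding genes. Under the block the log2 fold change was 0.45 for Malat1, 0.26 for Neat1, -0.20 for Gas5 and -0.04 for Snhg1, none past the threshold.

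Depth limits the least abundant RNA most. Counts of 0 to 3 in a library with IL-10 do not fix the size of the difference for 9530020I12Rik, and with 3 libraries per group the interval of Malat1 is wide. Intervals from summed counts cover counting error only.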

Other observations

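Long noncoding genes with a higher level per exon base than Malat1 were AW112010, 2410006H16Rik, Gm26917 and Mir142hg. AW112010, a transcript of activated immune cells, had 11766, 8270 and 8485 counts W/O IL-10 and 15201, 11080 and 11159 W/ IL-10 (log2 fold change 0.53, SE 0.18, edgeR adjusted p = 0.215). Its lowest library with IL-10 lay above the highest without IL-10 in CPM (488 against 480), so the groups did not overlap. 2410006H16Rik had 3465, 2414 and 2543 counts W/O IL-10 and 2314, 2145 and 1942 W/ IL-10 (log2 fold change -0.26, edgeR adjusted p = 0.445), with its highest count in W/O IL-10 replicate 1.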
